A study of Homo sapiens with 10 samples.

Results

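SRM, the gene of spermidine synthase, was followed here together with 9 other genes that make, regulate or break down polyamines: SMS, ODC1, AMD1, SAT1, OAZ1, OAZ2, AZIN1, PAOX and SMOX. SRM was chosen by its own readout, a deep fall in the miR3124_mimic libraries against miRcontrol, and the other 9 genes were taken by symbol for their place in the pathway. All 10 symbols were found, each on 1 row, among the 52402 gene symbols of the count files, and all 10 passed the filter on low counts that left 14884 genes for testing. The cells were BEAS2B, an established human bronchial epithelial line labelled as normal and of WT genotype, and every group, the control included, was transfected with Lipofectamine 2000. The groups were a scrambled miRNA control (miRcontrol), a miR-3124-5p mimic (miR3124_mimic), a miR-200b-3p mimic (miR200b_mimic), a miR-92b inhibitor (miR92b_inhibitor) and the 3 agents together (the 3-miRNA mixed group). A mimic adds a synthetic copy of a miRNA, and an inhibitor binds the cell's own. Each single agent was used at 50 nM and RNA was taken after 48 h. The amount of each agent in the 3-miRNA mixed group is not stated in the sources used here, so a lower dose and the presence of the other agents cannot be told apart in that group. There were 2 libraries per group, 10 in all, with 13587666 to 18503890 counts each, and the labels do not say whether the libraries of a group were separate transfections. The p-values therefore measure the spread between these libraries, which may be technical.

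Polyamines are small positively charged molecules that bind RNA and DNA and are needed for growth. ODC1 makes putrescine from ornithine, AMD1 makes the decarboxylated S-adenosylmethionine that donates aminopropyl groups, SRM uses that donor to turn putrescine into spermidine, and SMS uses it to turn spermidine into spermine. The antizymes OAZ1 and OAZ2 bind ornithine decarboxylase and send it to the proteasome, while AZIN1, a decarboxylase-like protein without activity, binds the antizymes instead. SAT1 acetylates spermidine and spermine, PAOX oxidizes the acetylated forms, and SMOX oxidizes spermine directly. Spermidine is also the donor for hypusine, a modified lysine of the translation factor eIF5A.

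The mature sequences of the transfected miRNAs, from RefSeq (GRCh38.p14), are shown because the group that chose SRM received one of them. Capitals mark the seed, bases 2 to 8, and no pair of these miRNAs shares a seed. The label of the inhibitor does not state an arm, so both arms of miR-92b are given.
hsa-miR-3124-5p: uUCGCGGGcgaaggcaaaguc
hsa-miR-200b-3p: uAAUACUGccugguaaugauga
hsa-miR-92b-5p: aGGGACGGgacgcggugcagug
hsa-miR-92b-3p: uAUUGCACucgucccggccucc
These mRNA libraries do not measure the transfected miRNAs themselves, so the transfections could not be checked from them.

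The word complementary to the miR-3124-5p seed, CCCGCGA, was searched in 1 coding transcript per gene (GENCODE v29, GRCh38), on the strand of the mRNA. SRM was the only one of the 10 genes that held it, with 1 match in its coding part of 909 bases and none in its untranslated parts. The shorter word CCGCGA, which pairs with bases 2 to 7, occurred 3 times in the SRM coding part, and 1 of these lies inside the longer word. The 3 stretches are shown on the minus strand of chromosome 1, in the sense of the mRNA, with the matching word in capitals.
SRM coding base 48, chr1:11059891-11059896: ccgccgccatCCGCGAgggctggttc
SRM coding base 63, chr1:11059876-11059881: agggctggttCCGCGAgacctgcagc
SRM coding base 279, chr1:11059228-11059234: gccaccccaaCCCGCGAaaggtgctga
Among all 19652 coding parts, 4.09% held CCCGCGA, 13.5% held CCGCGA and 0.738% held 3 or more of the shorter word. Among the 2041 coding parts within 10% of the length of the SRM coding part, 3.67% held CCCGCGA and 0.343% held 3 or more of the shorter word. The SRM coding part is rich in G and C, at 61.8% against a median of 52.4% for coding parts of that length. OAZ1 was the only other gene of the 10 with the shorter word, once in its coding part. Of the words for the other miRNAs, CAGTATT, for miR-200b-3p, was found in the SMS coding part (9.12% of all coding parts hold it), across an exon junction. GTGCAAT, for miR-92b-3p, was found in the AMD1 coding part (5.81%), and CCGTCCC, for miR-92b-5p, in the 5′UTR of AZIN1 (3.57% of 5′UTRs). A match of letters is a description of the sequence and not of binding.

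SRM lay at 124.8 and 122.5 normalized CPM (counts scaled to library size with edgeR's RLE factors) in the miRcontrol libraries and at 14.89 and 16.58 in the miR3124_mimic libraries. The counts behind these values were 2181 and 2052 in miRcontrol and 218 and 293 in miR3124_mimic. Libraries of the 3-miRNA mixed group held 60.44 and 60.86, those of miR200b_mimic 118.4 and 123.6, and those of miR92b_inhibitor 142 and 140.9. In order of level, miR3124_mimic was lowest, the 3-miRNA mixed group next, miR200b_mimic and miRcontrol overlapped each other, and miR92b_inhibitor was highest. Every other neighbouring pair in that order was apart, with the libraries of one group all above those of the other.

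**Figure D1:**
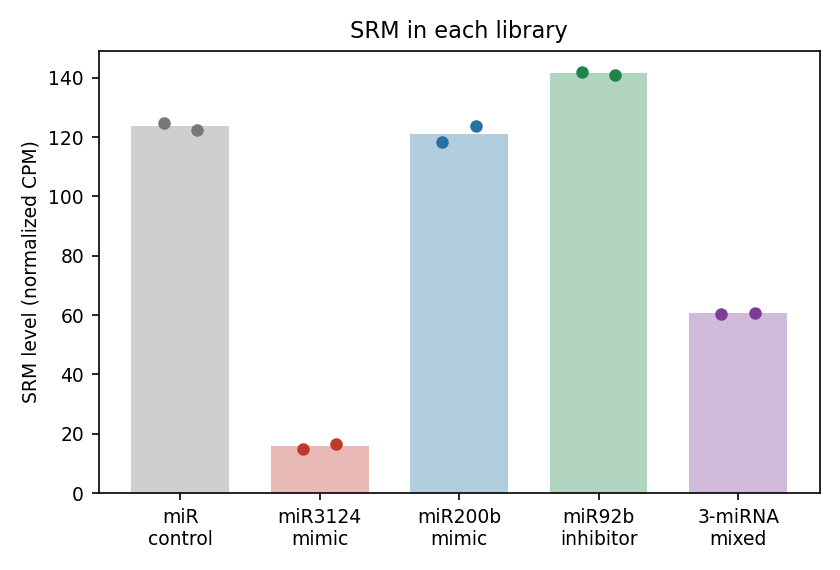
SRM level in normalized CPM (vertical axis) in the 5 groups, with bars at the mean of 2 libraries and points for the libraries. The miR3124_mimic points sit at 14.89 and 16.58, the 3-miRNA mixed points near 60, and the other 6 points between 118.4 and 142.

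The mean SRM level was 15.73 ± 1.20 CPM (SD, n = 2) in miR3124_mimic against 123.7 ± 1.67 in miRcontrol, a log2 fold change of -2.97 with a standard error of 0.06, or 7.82-fold lower. This difference selected the gene and is given with no test. Among the 9268 genes with a mean of at least 10 CPM it was the deepest fall in that comparison, ahead of the lncRNA AGAP2-AS1 at -2.56 and the actin crosslinker ACTN1 at -2.49, and among all 14884 genes it ranked 9. In the 3-miRNA mixed group SRM was at 60.65 ± 0.30 CPM (SD, n = 2), a log2 fold change of -1.03 ± 0.05 (SE) against the same miRcontrol libraries. Between the 3-miRNA mixed group and miR3124_mimic the SRM level differed by 1.94 on the log2 scale. In miR92b_inhibitor SRM was at 141.4 ± 0.75 CPM (SD, n = 2), 0.19 ± 0.04 (log2, SE) above miRcontrol, and in miR200b_mimic at 121 ± 3.72 CPM (SD, n = 2), a log2 difference of -0.03 ± 0.05 (SE). All these comparisons use the miRcontrol or miR3124_mimic libraries that chose the gene and are given with no test. Among the 3 groups that did not choose it, SRM was lower in the mixed group than in miR200b_mimic by -1.00 ± 0.05 (log2, SE; adjusted p = 2.428e-21), where 20.4% of all genes were lower, and than in miR92b_inhibitor by -1.22 ± 0.05 (adjusted p = 1.385e-25), where 19.9% were lower. It was higher in miR92b_inhibitor than in miR200b_mimic by 0.22 ± 0.05 (adjusted p = 5.244e-05), where 24.8% of all genes were higher. These 3 comparisons were added after the values were seen, and they share libraries. In bulk libraries, less RNA per cell and fewer cells with the RNA cannot be told apart.

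The 4 tested genes beside SRM on chromosome 1 differed by between -0.24 and 0.34 on the log2 scale in miR3124_mimic. SRM lies on the minus strand at chr1:11054584-11060024 (GRCh38). EXOSC10, a nuclear exosome subunit upstream of it, was at 139.9 ± 2.90 CPM in miR3124_mimic and 135.4 ± 1.07 in miRcontrol (SD, n = 2), a log2 difference of 0.05 (adjusted p = 0.3951). MTOR, the growth kinase beyond EXOSC10, rose by 0.34 on the log2 scale (adjusted p = 1.499e-09). On the other side, MASP2, a complement protease at about 2 CPM, changed by -0.08 (adjusted p = 0.86). Leaving out 1 library moved that value as far as -0.37 and 0.30. TARDBP, an RNA-binding protein, fell by 0.24 on the log2 scale (adjusted p = 8.409e-07). The SRM pseudogenes SRMP1 and SRMP2 held at most 2 counts in any library; how reads shared with copies were counted is not given in the sources used here. AMD1P3 held at most 12 counts, the other listed copies of AMD1 and ODC1 held none, and AZIN1-AS1, antisense to AZIN1, held at most 3.

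**Figure D2:**
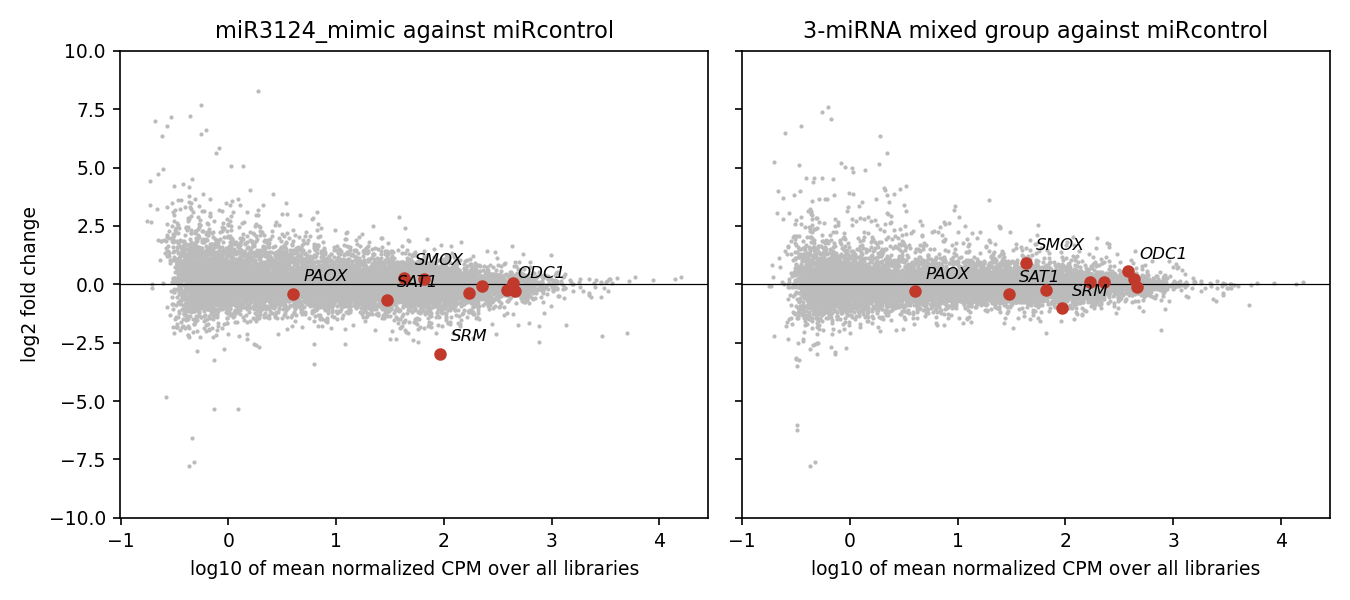
Log2 fold change against miRcontrol (vertical axis) over the log10 mean normalized CPM of all libraries (horizontal axis) for the 14884 tested genes in grey, with the 10 polyamine genes in red, for miR3124_mimic (left) and the 3-miRNA mixed group (right). SRM lies at -2.97 on the left, the change that selected it, and at -1.03 on the right.

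Against miRcontrol, 2 of the other 9 genes were higher in miR3124_mimic, where 25.7% of all tested genes were higher, and 4 were lower, where 25.3% were lower (edgeR's quasi-likelihood test, adjusted p under 0.05). Their median log2 change was -0.25, against 0.00 over all genes, and none of the 9 passed a fold change of 2, which 8.13% of all genes did. That count was also 0 at an unadjusted p under 0.05 and by DESeq2. In miR200b_mimic, 5 of the 9 genes were higher (21.4% of all genes) and 0 lower (19.1%). The count of 0 lower was the same at an unadjusted p under 0.05 and by DESeq2. In miR92b_inhibitor, 3 were higher (17.5% of all genes) and 2 lower (18.2%), and in the 3-miRNA mixed group 3 were higher (21.5%) and 3 lower (21.1%). The count of 5 in miR92b_inhibitor fell to 3 without the second miRcontrol library and by DESeq2. In miR200b_mimic, miR92b_inhibitor and the mixed group 0 of the 9 passed a fold change of 2, by edgeR or DESeq2 and also at an unadjusted p under 0.05, where 4.88%, 1.91% and 4.67% of all genes did. All 4 comparisons share the 2 miRcontrol libraries.

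**Figure D3:**
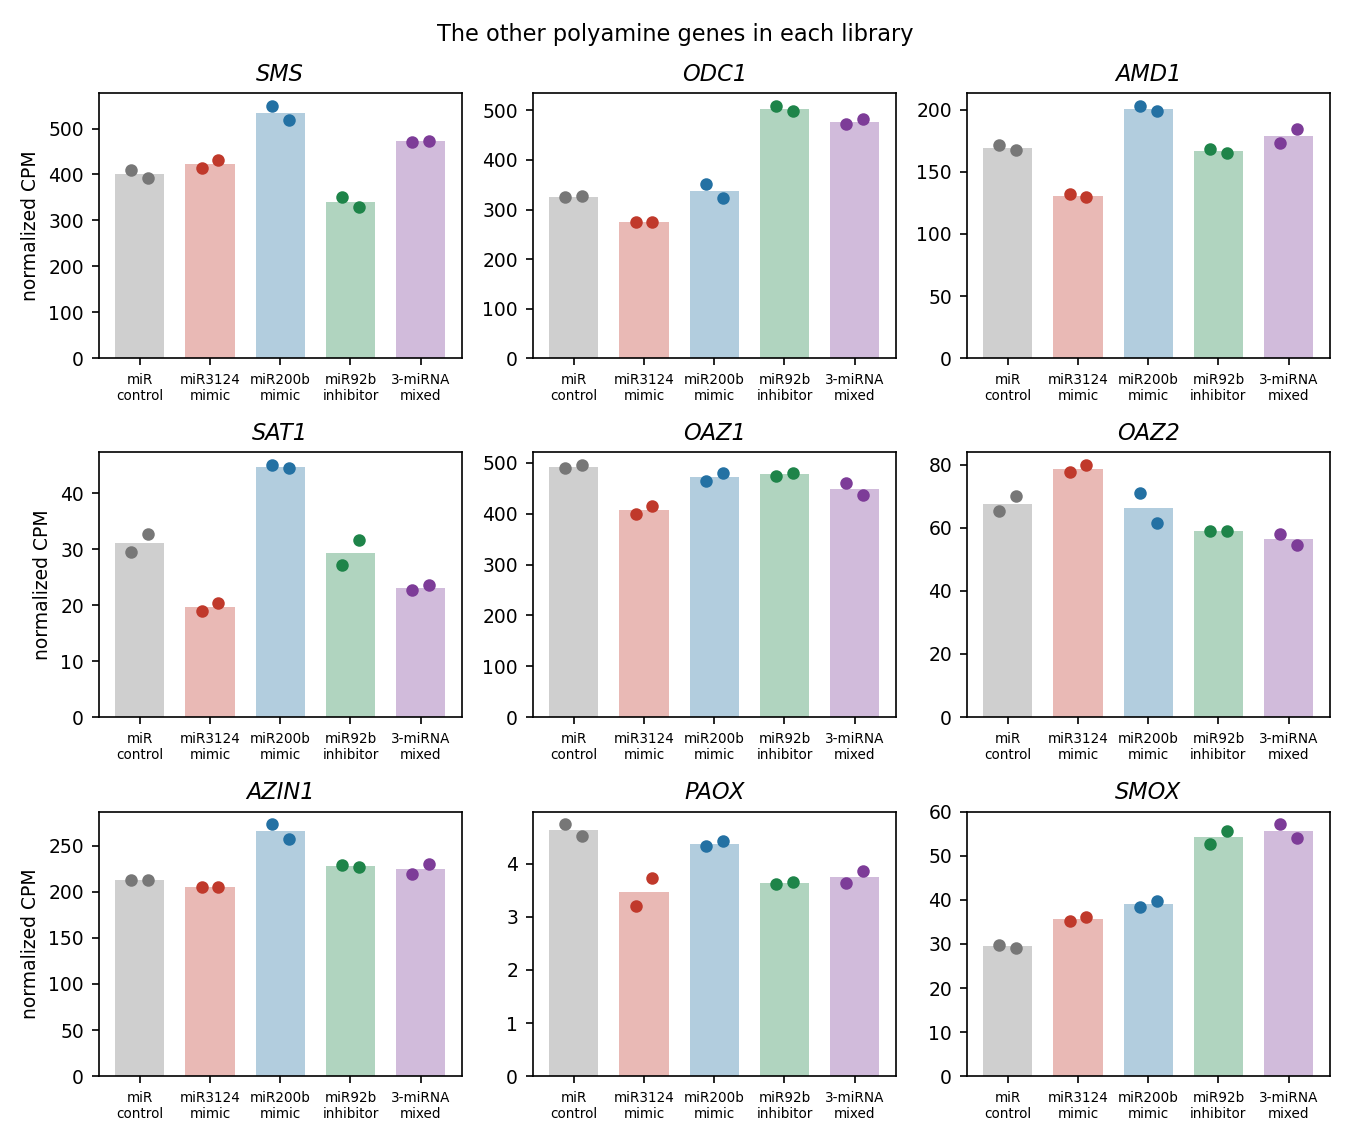
Normalized CPM (vertical axes, each from 0) of the 9 other polyamine genes in the 5 groups, with bars at the mean of 2 libraries and points for the libraries. ODC1 and SMOX are highest in miR92b_inhibitor and the 3-miRNA mixed group, and SAT1, AMD1, SMS and AZIN1 in miR200b_mimic.

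Of the genes that make polyamines, ODC1 was raised by the miR-92b inhibitor and in the mix. AMD1 was raised by the miR-200b mimic, and SMS by the miR-200b mimic and in the mix. ODC1, which starts the pathway, lay at 325.1 and 326.4 CPM with miRcontrol, 508.8 and 498.5 with miR92b_inhibitor, 351.7 and 323.7 with miR200b_mimic, 273.8 and 275 with miR3124_mimic, and 471.8 and 482.5 in the mixed group. The miR92b_inhibitor libraries were the highest of all and the miR3124_mimic libraries the lowest. ODC1 rose by 0.63 ± 0.04 (log2, SE; adjusted p = 2.25e-18) in miR92b_inhibitor and by 0.55 ± 0.04 (adjusted p = 4.735e-17) in the 3-miRNA mixed group, and fell by 0.25 on the log2 scale (adjusted p = 4.908e-07) in miR3124_mimic. In miR200b_mimic its libraries overlapped those of miRcontrol, with a log2 difference of 0.05 (adjusted p = 0.32). Over the alternatives that difference ranged from -0.01 to 0.11, and 1 of them gained the call.

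AMD1, the donor-making decarboxylase, held 171.7 and 167.4 CPM with miRcontrol, 168.3 and 165.4 with miR92b_inhibitor, 203 and 198.9 with miR200b_mimic, 131.9 and 130 with miR3124_mimic, and 173 and 184.6 in the mixed group. It fell by 0.37 on the log2 scale in miR3124_mimic (adjusted p = 4.214e-10) and rose by 0.24 in miR200b_mimic (adjusted p = 3.66e-06). The other groups lay within 0.08 of miRcontrol and did not pass the test. SMS, the spermine synthase, held 409.5 and 393.1 CPM with miRcontrol, 351.2 and 329 with miR92b_inhibitor, 548.8 and 517.7 with miR200b_mimic, 412.9 and 431.6 with miR3124_mimic, and 471.6 and 472.7 in the mixed group. All 5 groups were apart from each other for SMS, with miR92b_inhibitor lowest and miR200b_mimic highest. Its rise was 0.41 ± 0.04 (log2, SE; adjusted p = 1.488e-12) in miR200b_mimic and 0.23 (adjusted p = 1.428e-06) in the 3-miRNA mixed group, and it fell by 0.24 on the log2 scale in miR92b_inhibitor (adjusted p = 2.385e-06). In miR3124_mimic SMS differed by 0.07 (adjusted p = 0.1065), a difference that passed the test when the libraries were scaled by their totals only (0.10) or when genes needed at least 10 counts in every library (0.09).

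Per length, the 2 synthases stood in different ratios from group to group. With counts divided by the length of the coding transcript, the SRM level was 97.7 RPKM (reads scaled to transcript length and library size) and the SMS level 218.4 RPKM in miRcontrol. The per-length level of SRM divided by that of SMS was 0.442 and 0.452 in the miRcontrol libraries, 0.587 and 0.622 with miR92b_inhibitor, 0.313 and 0.347 with miR200b_mimic, 0.186 and 0.187 in the mixed group, and 0.0523 and 0.0557 with miR3124_mimic. No group overlapped another in this ratio, which includes the values that chose SRM and is a description. In miRcontrol the per-length levels ran from 429.1 RPKM for OAZ1 and 218.4 for SMS through 122.8 for ODC1, 97.7 for SRM, 49.3 for AMD1, 45.1 for AZIN1, 35 for OAZ2, 29.2 for SAT1 and 12.7 for SMOX to 2.50 for PAOX. The order depends on the length used: with the length of all annotated exons SMS was highest, at 185.8, and OAZ1 followed at 143.4.

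OAZ1, OAZ2 and AZIN1, regulators of ornithine decarboxylase, changed by at most 0.32 on the log2 scale against miRcontrol. OAZ1, the main antizyme, held 489.6 and 495.6 CPM with miRcontrol, 473.8 and 481 with miR92b_inhibitor, 464.8 and 481 with miR200b_mimic, 399.2 and 414.9 with miR3124_mimic, and 460.1 and 436.3 in the mixed group. It fell by 0.27 on the log2 scale (adjusted p = 1.304e-08) in miR3124_mimic and by 0.14 (adjusted p = 0.001774) in the 3-miRNA mixed group, where the call was lost without the second mixed library (-0.10). OAZ2, the second antizyme, moved the other way in miR3124_mimic, where its libraries held 77.58 and 79.83 CPM against 65.19 and 70.13 in miRcontrol. That rise of 0.22 (log2; adjusted p = 0.001454) was lost without the first miRcontrol library (0.17). OAZ2 was lower in miR92b_inhibitor, at 58.82 and 59.01 CPM, and in the 3-miRNA mixed group, at 58.12 and 54.46. The log2 changes were -0.20 (adjusted p = 0.007422) and -0.27 (adjusted p = 0.0002952), and the first of them was lost by DESeq2 (-0.20) and without the second miRcontrol library (-0.15). In miR200b_mimic its libraries, at 70.96 and 61.38, overlapped those of miRcontrol.

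AZIN1, the antizyme inhibitor, held 212.7 and 213 CPM in miRcontrol and 273.5 and 257.7 in miR200b_mimic, a rise of 0.32 ± 0.04 (log2, SE; adjusted p = 5.111e-09). Its libraries held 229.3 and 226.5 with miR92b_inhibitor, 205.2 and 204.7 with miR3124_mimic, and 219.7 and 230.6 in the mixed group. The rise of 0.10 in miR92b_inhibitor lay at the threshold (adjusted p = 0.04856) and was lost when any 1 of the 4 libraries was left out, where it ranged from 0.09 to 0.11, and by DESeq2 and without the filter on low counts (0.10 each). The changes in miR3124_mimic (-0.05, adjusted p = 0.2737) and in the 3-miRNA mixed group (0.08, adjusted p = 0.0966) did not pass the test, though the second did under library totals only (0.10).

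Of the genes that break polyamines down, SMOX rose in all 4 comparisons with miRcontrol and SAT1 moved in both directions. SAT1, the acetyltransferase, held 29.53 and 32.77 CPM with miRcontrol, 27.08 and 31.7 with miR92b_inhibitor, 45.01 and 44.41 with miR200b_mimic, 18.92 and 20.42 with miR3124_mimic, and 22.62 and 23.62 in the mixed group. It fell by 0.66 on the log2 scale (SE 0.09; adjusted p = 1.338e-08) in miR3124_mimic and by 0.43 (SE 0.08; adjusted p = 3.308e-05) in the 3-miRNA mixed group. In miR200b_mimic it rose by 0.52 ± 0.08 (log2, SE; adjusted p = 2.502e-07), and in miR92b_inhibitor its libraries overlapped those of miRcontrol.

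SMOX, the spermine oxidase, held 29.71 and 29.19 CPM with miRcontrol, 52.69 and 55.73 with miR92b_inhibitor, 38.36 and 39.81 with miR200b_mimic, 35.31 and 36.21 with miR3124_mimic, and 57.23 and 54.13 in the mixed group. Both miRcontrol libraries lay below all 8 others, and miR92b_inhibitor and the mixed group overlapped each other at the top. The rise was largest in the 3-miRNA mixed group, at 0.92 ± 0.07 (log2, SE; adjusted p = 3.834e-16), and reached 0.88 ± 0.07 (adjusted p = 7.272e-15) with the miR-92b inhibitor. It was 0.41 ± 0.07 (adjusted p = 5.622e-06) with the miR-200b mimic and 0.28 ± 0.07 (adjusted p = 0.0009694) with the miR-3124 mimic. PAOX, the acetylpolyamine oxidase, was the least abundant of the 10 genes, with 47 to 83 counts per library. Its level was 4.64 ± 0.15 CPM (SD, n = 2) in miRcontrol and between 3.47 and 4.38 on average in the other groups. No change of PAOX passed the test, and the largest was -0.41 ± 0.20 (log2, SE; adjusted p = 0.08497) in miR3124_mimic. There the libraries lay apart and the unadjusted p was 0.04681.

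Set directly against miR3124_mimic, the 3-miRNA mixed group had higher levels of most of these genes. Of the 9 genes other than SRM, 7 were higher (25.3% of all genes) and 1 was lower (23.8%), by edgeR's quasi-likelihood test. ODC1 was higher by 0.80 ± 0.04 (log2, SE; adjusted p = 1.236e-22), SMOX by 0.64 ± 0.06 (adjusted p = 1.446e-11) and AMD1 by 0.45 ± 0.04 (adjusted p = 2.087e-12). OAZ2 was the gene that was lower, by -0.49 ± 0.06 (adjusted p = 2.152e-09), and PAOX did not pass the test (0.11, adjusted p = 0.7005). The calls of 3 others were lost when 1 library was left out. SAT1 (0.23) went to 0.18 without the first miR3124_mimic library and to 0.20 without the second mixed library, and its call was also lost by DESeq2 (0.24) and without the filter on low counts (0.23). OAZ1 (0.14) went to 0.10 without the first mixed library, and AZIN1 (0.14) to 0.10 without the second.

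**Figure D4:**
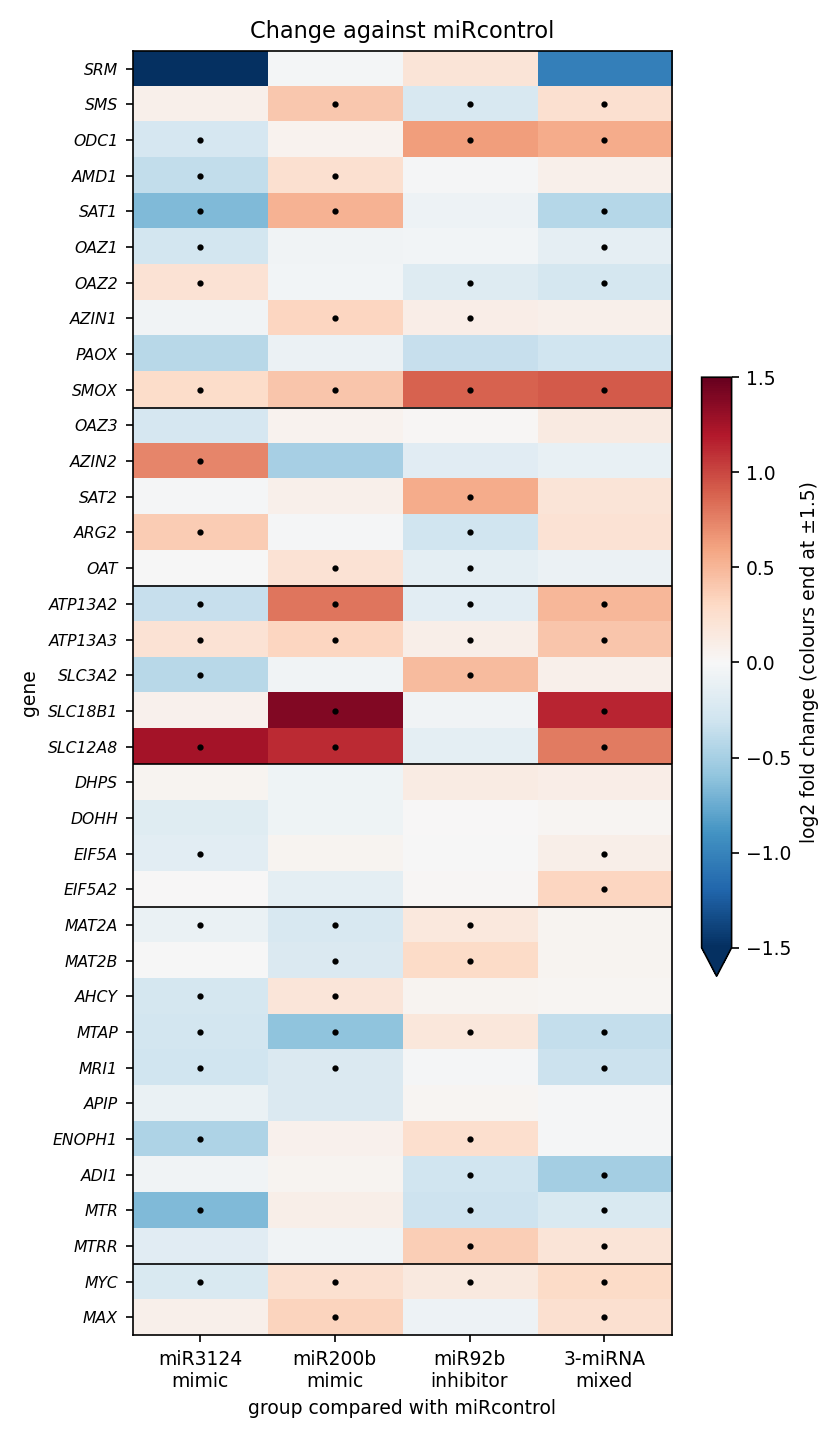
Log2 fold change against miRcontrol (colour, red higher and blue lower, ending at ±1.5) for the 10 polyamine genes (top block) and the 26 tested genes of the wider pathway (rows) in the 4 groups set against miRcontrol (columns). Black dots mark an adjusted p under 0.05; SRM, at -2.97 and beyond the colours in miR3124_mimic, was not tested against miRcontrol.

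The wider pathway was read from a list of 33 genes, of which 26 could be tested. The list covers precursor supply and paralogues, transport, hypusine, the methionine cycle, and MAX with the MYC proteins that are known to act on ODC1. Of these 26, 4 were higher and 10 lower with miR3124_mimic (25.7% and 25.3% of all genes), 8 higher and 4 lower with miR200b_mimic (21.4% and 19.1%), 9 higher and 5 lower with miR92b_inhibitor (17.5% and 18.2%), and 9 higher and 4 lower in the mixed group (21.5% and 21.1%). The medians of their log2 changes were -0.10, 0.04, 0.02 and 0.08, against medians of all genes within 0.01 of 0. The count of 14 in miR92b_inhibitor fell to 8 without the second miRcontrol library or the second inhibitor library, and to 9 without the first inhibitor library or by DESeq2.

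SLC18B1 and SLC12A8, both transport genes, were the 2 genes of the wider list that passed a fold change of 2 in any comparison with miRcontrol. SLC18B1, a vesicular polyamine transporter, held 2.63 and 2.92 CPM in miRcontrol, 7.03 and 7.48 in miR200b_mimic and 5.86 and 6.46 in the 3-miRNA mixed group. Its log2 changes were 1.39 ± 0.20 (SE; adjusted p = 8.245e-08) and 1.15 ± 0.20 (adjusted p = 3.739e-06), and in the other 2 groups its libraries overlapped those of miRcontrol. ATP13A2, a lysosomal polyamine exporter, rose from 56.2 ± 2.20 CPM in miRcontrol to 98.2 ± 0.81 (SD, n = 2) in miR200b_mimic, by 0.81 ± 0.06 (log2, SE; adjusted p = 5.829e-17). It rose by 0.49 in the 3-miRNA mixed group (adjusted p = 2.96e-10) and fell by 0.34 on the log2 scale in miR3124_mimic (adjusted p = 6.321e-06). A change of -0.15 in miR92b_inhibitor (adjusted p = 0.03675) was lost without the second miRcontrol library (-0.12) or the second inhibitor library (-0.10), by DESeq2 (-0.15), under TMM scaling (-0.14), without the filter on low counts (-0.15) and in a fit of the compared groups alone (-0.15). SLC12A8, a solute carrier with 14 to 50 counts per library, was higher by 1.25 ± 0.31 (log2, SE; adjusted p = 0.0006266) in miR3124_mimic, by 1.12 ± 0.32 (adjusted p = 0.003581) in miR200b_mimic and by 0.77 ± 0.32 (adjusted p = 0.04704) in the 3-miRNA mixed group. The last call was lost without any 1 of its 4 libraries (0.59 to 0.98) and by DESeq2 (0.78), and the call in miR200b_mimic without the first miRcontrol library (0.93).

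In the methionine cycle, which supplies and recycles the donor of aminopropyl groups, 6 of 10 tested genes were lower in miR3124_mimic (25.3% of all genes) and 0 higher (25.7%) by edgeR's test, and the count of 0 was the same at an unadjusted p under 0.05 and by DESeq2. In the other comparisons 1 was higher and 4 lower with miR200b_mimic, 5 higher and 2 lower with miR92b_inhibitor, and 1 higher and 4 lower in the mixed group, beside the shares of all genes given above. MTR, the methionine synthase, held 106.9 and 111.2 CPM in miRcontrol and 70.27 and 67.95 in miR3124_mimic, a fall by 0.66 on the log2 scale (SE 0.05; adjusted p = 1.451e-15). It also fell by 0.32 in miR92b_inhibitor (adjusted p = 7.529e-07) and by 0.23 in the 3-miRNA mixed group (adjusted p = 8.691e-05). MTAP, which recycles the methylthioadenosine released by SRM and SMS, held 83 and 79.2 CPM in miRcontrol and 55.11 and 51.6 in miR200b_mimic, a fall by 0.61 on the log2 scale (SE 0.06; adjusted p = 2.819e-12). It fell by 0.28 in miR3124_mimic (adjusted p = 3.973e-05) and by 0.36 in the 3-miRNA mixed group (adjusted p = 3.648e-07). The rise of MTAP by 0.17 in miR92b_inhibitor (adjusted p = 0.01118) was lost without the second miRcontrol library (0.13), without the first (0.16) or the second (0.17) inhibitor library, and by DESeq2 (0.17).

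AZIN2, a second antizyme inhibitor with 30 to 79 counts per library, rose by 0.74 ± 0.23 (log2, SE; adjusted p = 0.00531) in miR3124_mimic. That call was lost without the second miRcontrol library (0.52), without the first miR3124_mimic library (0.61) and by DESeq2. The 4 genes of the hypusine pathway changed by at most 0.32 on the log2 scale in all 4 comparisons. Of those 4, 1 was lower in miR3124_mimic and 2 were higher in the mixed group, and with miR200b_mimic and miR92b_inhibitor 0 passed edgeR's test or DESeq2's (1 and 0 at an unadjusted p under 0.05); so few genes say little beside the shares of all genes given above. Of the 3 genes listed for MYC (MYC, MYCN and MAX), MYCN had 0 counts in every library. MAX rose by 0.34 on the log2 scale in miR200b_mimic (adjusted p = 2.866e-06) and by 0.23 in the mixed group (adjusted p = 0.0005533). Its changes in miR3124_mimic (0.08, adjusted p = 0.2543) and miR92b_inhibitor (-0.08, adjusted p = 0.3239) did not pass the test. MYC, at 71.9 ± 2.54 CPM (SD, n = 2) in miRcontrol, fell by 0.23 on the log2 scale with the miR-3124 mimic (adjusted p = 0.0005934), and rose by 0.24 with the miR-200b mimic (adjusted p = 0.0002503) and by 0.29 in the mix (adjusted p = 1.031e-05). Its rise of 0.15 with the miR-92b inhibitor (adjusted p = 0.02242) was lost by DESeq2 (0.15), without the second miRcontrol library (0.11) and without the first (0.15) or the second (0.16) inhibitor library.

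Correlation with SRM was taken on log2 normalized CPM over the 10 libraries, among 9267 other genes with a mean of at least 10 CPM. The 5 genes that followed SRM most closely were C20orf27 (Pearson r = 0.998), RGMB (0.996), TOR4A (0.995), PITX1 (0.994) and NOL9 (0.994). RGMB is a coreceptor for bone morphogenetic proteins, PITX1 a homeobox factor and NOL9 a kinase of ribosomal RNA processing. The points are 5 groups of 2 libraries, so the values mostly restate the low level in miR3124_mimic and the intermediate one in the 3-miRNA mixed group. C20orf27 went from 70.8 CPM in miRcontrol to 13.7 with miR3124_mimic and 38 in the mixed group, with log2 changes of -2.37 and -0.90. PITX1 changed by -2.03 and -0.78, TOR4A by -1.60 and -0.55, RGMB by -1.24 and -0.49, and NOL9 by -0.65 and -0.25. By rank correlation 0 of these 5 were among the closest 5. There RGMB ranked 49, C20orf27 112, NOL9 203, TOR4A 738 and PITX1 786. Of the 9 other polyamine genes, OAZ1 had the highest r with SRM (0.95), followed by AMD1 (0.80) and SAT1 (0.77), and OAZ2 had the lowest (-0.60).

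**Figure D5:**
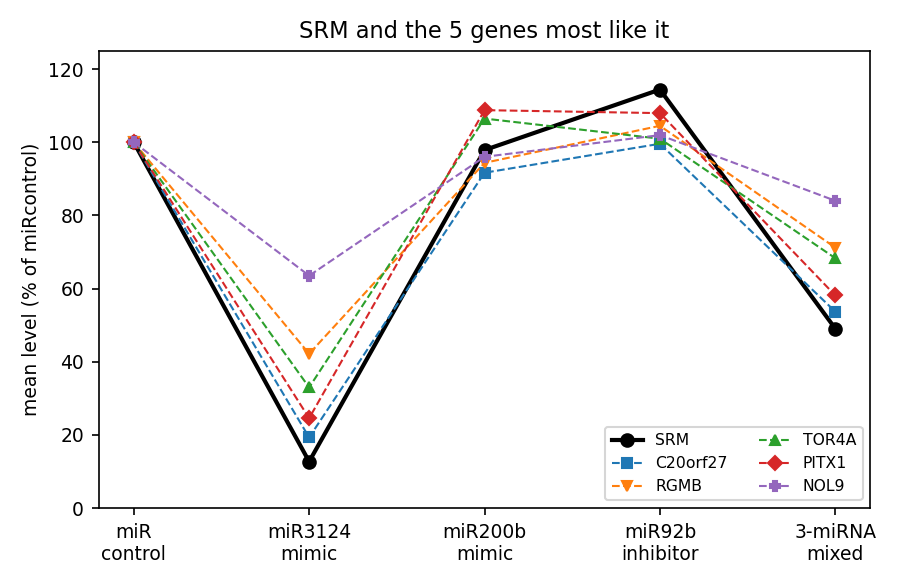
Mean level as a percentage of miRcontrol (vertical axis) in the 5 groups for SRM and the 5 genes with the highest Pearson correlation to it. SRM falls to 12.7% with miR3124_mimic and 49% in the mixed group, and the 5 genes dip in the same groups by less.

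Of those 5 genes, PITX1 held CCCGCGA in its coding part. C20orf27 and NOL9 held the shorter CCGCGA once there, and TOR4A held it 2 times. PITX1 and TOR4A also held the shorter word once each in the 3′UTR. Among all coding parts 4.09% held CCCGCGA and 13.5% held CCGCGA, and among all 3′UTRs 1.61% held CCGCGA. The 5 genes were picked by their likeness to SRM, so their words are a description. RGMB held neither word in any part of its transcript. Across the 517 tested genes with CCCGCGA in the coding part, the median log2 change was -0.23 with miR3124_mimic and -0.18 in the mixed group. It was -0.11 in miR92b_inhibitor and -0.06 in miR200b_mimic. With miR3124_mimic and in the mixed group 47.0% and 44.9% of them were lower, against 28.3% and 24.0% of all 12297 tested genes with a coding transcript. In miR92b_inhibitor 31.7% were lower against 20.9%, and in miR200b_mimic 27.1% against 21.3%. The shares called higher were 23.4% against 28.8% with miR3124_mimic and 15.9% against 24.4% in the mixed group. They were 12.2% against 19.5% in miR92b_inhibitor and 21.3% against 24.5% in miR200b_mimic. Their coding parts were longer (median 1908 bases against 1443) and richer in G and C (61.1% against 52.3%), and the part of length and composition in these shares was not tested. The genes with this word include SRM, whose change at -2.97 lay far below their median.

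The cell identity was checked against markers. KRT8, at 813.9 and 813.7 CPM in miRcontrol, KRT7, at 825.7 and 760.6, and KRT18, at 619 and 637.7, were the abundant ones of 8 epithelial markers, with KRT8 highest by the mean over all libraries. The basal markers KRT5 and TP63 had at most 9 and 2 counts in any library, and EPCAM and CDH1, which define many epithelia, had at most 8 and 3 counts in miRcontrol. The libraries are thus keratin-positive without these defining markers, except that EPCAM reached 10.24 and 10.07 CPM in miR200b_mimic and 5.70 and 5.27 in the mixed group, and CDH1 reached 10.92 and 9.03 and then 2.54 and 1.94 in these groups. The summed epithelial markers were 2264 and 2219 CPM with miRcontrol, 2187 and 2098 with miR92b_inhibitor, 4188 and 4267 with miR200b_mimic, 2784 and 2793 with miR3124_mimic, and 4115 and 4088 in the mixed group. The 4 mesenchymal markers, of which VIM was the most abundant and COL3A1 had at most 4 counts, summed to 3914 and 3726 CPM with miRcontrol, 4262 and 4247 with miR92b_inhibitor, 3012 and 3032 with miR200b_mimic, 880.8 and 851.8 with miR3124_mimic, and 2719 and 2808 in the mixed group. That sum, nearly all VIM, was lowest in the group where SRM was lowest and highest where SRM was highest. The other expressed members did not follow it: COL1A1 was at 12.99 and 10.98 CPM with miRcontrol, 22.74 and 24.89 with miR3124_mimic and 6.24 and 6.57 with miR92b_inhibitor, and PDGFRB at 7.61 and 7.64, then 30.94 and 28.01, then 9.34 and 8.60. The part of these markers in the SRM values was not tested. PTPRC, CD3E, PECAM1, VWF and CHGA, which define leukocytes, endothelium and neuroendocrine cells, had at most 10 counts in any library. SYP, the most abundant of the neuroendocrine markers, had at most 11 counts in any library and 0 in both mixed libraries. The endothelial sum, mostly CDH5, reached 4.78 and 3.05 CPM in miR3124_mimic against at most 1.24 elsewhere. CD68 made up nearly all of the leukocyte sum of 17.3 to 40.7 CPM.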

How the data were processed

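Poly(A) RNA of 10 BEAS2B libraries was made into NEBNext Ultra II Directional libraries and sequenced. The authors trimmed reads with FASTX_Trimmer and BBMap and mapped them with TopHat to GRCh38 (build and mapper also named in the submitters' processing notes). The counter, annotation and strand setting are not given in the sources used here. The deposited files hold whole-number read counts, not normalized. Counts of repeated symbols were summed. In R 4.3.3, edgeR 4.0.16 (filterByExpr, RLE factors 0.985 to 1.016, glmQLFit and glmQLFTest, all groups in 1 fit) tested 14884 genes, with Benjamini-Hochberg adjustment and a threshold of 0.05. Standard errors are the log2 fold change divided by the root of F. DESeq2 1.42.0, TMM, library totals only, other filters, a fit of the compared groups, a replicate block and leave-one-out fits were alternatives. The test was tried on simulated counts. Words and lengths came from 1 coding transcript per gene (GENCODE v29). Differences between replicates of the same number correlated across groups at -0.04 to 0.06, so no shared shift by number was seen. Whether libraries of the same number were prepared together is not stated in the sources used here. Named were the 10 genes, wider-list genes past 0.05 and a fold change of 1.5 against miRcontrol, the 2 tested genes on each side of SRM and the 5 most correlated with it. Further genes named were chosen after their values were seen. SRM, chosen on its miR3124_mimic and miRcontrol levels, was tested only between the other groups; the plan had left only its miR3124_mimic comparisons untested. Members and lists were chosen with earlier results of these data known. Some listed genes are not reported here.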

Additional observations from a re-analysis of the deposited data

How the results depend on the processing

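Of 495 refits of the fold changes of the 9 polyamine genes other than SRM, 16 lost the call and 4 gained it. The sign changed in 4, none of them a called change. SRM ranged from -3.06 to -2.90 in miR3124_mimic, from -1.04 to -1.01 in the 3-miRNA mixed group and from 0.18 to 0.21 in miR92b_inhibitor, against miRcontrol and with no test. In miR200b_mimic it ranged from -0.06 to 0.0013, with 1 change of sign. Its 3 tested comparisons, added after seeing the data, kept their calls, with ranges of -1.03 to -0.97 (mixed group against miR200b_mimic), -1.23 to -1.21 (mixed group against miR92b_inhibitor) and 0.19 to 0.25 (miR92b_inhibitor against miR200b_mimic). With a fold change of at least 2 added, whether by adjusted or unadjusted p, the count of the 9 genes called went from 6 to 0 in miR3124_mimic, from 5 to 0 in miR200b_mimic, from 5 to 0 in miR92b_inhibitor, from 6 to 0 in the mixed group and from 8 to 0 between the mix and miR3124_mimic, since all these changes were smaller than that fold. In miR92b_inhibitor the count of 5 was 3 by DESeq2 and 3 to 4 when a library was left out. For the wider list in miR92b_inhibitor, DESeq2 called 9 genes in place of 14, and leaving out a library gave 8 to 12, with fewer samples in the fit; in the other comparisons its counts stayed within 1.5 times. With a replicate block, the counts of the 9 genes were 6, 5, 5, 6 and 8, as without it. Alternatives for the fold changes of single genes outside the 10 were added after seeing the data. Of 748 such refits 32 lost the call and 1 gained it. The sign changed in 17, none of them a called change. Other scalings moved the median of all genes by at most 0.03. With 2 libraries per group and about 4 CPM, PAOX was the one of the 10 polyamine genes most limited by depth, with standard errors near 0.20.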

Other observations

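Outside the comparisons above, ARG1, AGMAT, SLC22A2, SLC22A3, MAT1A and MYCN of the wider list could not be tested, with at most 9 counts in any library. ARG1, the liver arginase, held at most 2 counts, and SLC22A2, an organic cation transporter, and MYCN held 0 in every library. ARG2, the mitochondrial arginase, was at 12.3 CPM in miRcontrol and 16 in miR3124_mimic. SLC3A2, the heavy chain of several amino acid transporters, was at 255.4 ± 8.80 CPM (SD, n = 2) in miRcontrol, 191 ± 0.61 in miR3124_mimic and 355.2 ± 3.19 in miR92b_inhibitor. Its log2 changes in these groups were -0.42 (adjusted p = 3.219e-12) and 0.48 (adjusted p = 7.544e-14). These genes were named here after their values were seen.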
